A study of Mus musculus with 38 samples.

Results

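A set of 847 H3K4me3 regions was called in 3 of 3 IκBα-KO libraries and in 0 of 3 IκBα-WT libraries of mouse embryonic stem cells (mESCs), out of 28542 merged H3K4me3 regions on the autosomes outside 3 segments. The cells were ES-E14TG2a mESCs kept in Serum/LIF, sampled at time 0, and the genotypes were IκBα+/+ and IκBα-/-. The methods describe the IκBα-KO cells as clones made with a pair of guide RNAs to the first exon of Nfkbia, the gene of the NF-κB inhibitor IκBα, and the IκBα-WT cells as clones that received non-targeting guides, with 3 independent clones of each genotype. Each genotype gave 3 libraries for each of H3K4me3, H3K27me3, H3K9me3, H3K27ac and H3K4me1 by chromatin immunoprecipitation and sequencing (ChIP-seq). Thus n = 3 per genotype for each mark. The paper's checklist gives 3 clones per genotype for each experiment, and the libraries were taken as 1 per clone. The labels do not name the clone of a library. The 6 H3K4me3 peak lists were merged wherever calls overlapped by 1 bp, and the members were selected on their H3K4me3 calls alone. The H3K4me3 calls and their enrichment are therefore a description of how the members were chosen, and were not tested. Because the cells were profiled in bulk, a mark in fewer cells or on 1 allele cannot be told apart from a weaker mark in all of them.

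H3K4me3 is the trimethylated form of lysine 4 of histone H3. It is laid down mostly at transcription start sites, where CpG-rich DNA recruits the SET1 and MLL methyltransferases, while the monomethylated form H3K4me1 spreads over enhancers and the flanks of promoters. H3K27ac accompanies active promoters and enhancers, H3K27me3 is the mark of Polycomb repressive complex 2, and H3K9me3 marks heterochromatin, repeats and the silenced allele of imprinted genes. At an imprinting control region the methylated allele carries H3K9me3 and is bound by the zinc finger protein ZFP57, which reads the hexamer TGCCGC, whereas the unmethylated allele carries H3K4me3.

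The H3K4me3 lists differed in length, and the genotypes overlapped. Between 18354 and 21454 merged regions held a call in a KO library and between 16718 and 18760 in a WT library, and when every list was shortened to the same number of top-ranked calls the members fell to 496, beside 347 regions called only in WT. KO 1 had the shortest KO list, and without it 1688 regions met the rule. The rule left out chr2 from 165 to 171 Mb, chr8 from 40 to 129 Mb and chr12 from 103 to 119 Mb, where H3K4me1 reads in KO had shifted over the whole segment by a median of 0.30, 0.27 and -0.52 on the log2 scale. Another 23, 84 and 1 regions with the same calls lay in these segments and 19 on chromosome X, and 209 regions had the opposite pattern. All 8 stem cell markers examined, among them Pou5f1, Nanog and Sox2, carried H3K4me3 and H3K27ac at a start in 6 of 6 libraries, while 5 of 11 markers of other cell types (Col1a2, Ptprc, Cd34, Alb and Myod1) carried H3K27ac in none and the other 6 in 1 to 6 libraries. H3K4me3 was called at a start of Cd34, Thy1 and Twist2 in 6 lists, of Myod1 in 4 and of Col1a1 in 2. At Col1a2, Ptprc, Spi1, Alb, Apoa2 and Ckm it was called in 0.

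The sequences of 6 members are shown. Of these, 4 come from the 6 members at imprinted genes where H3K9me3 was called in WT lists only, and 2 from strongly enriched sites far from a protein-coding start. They are from GRCm38, plus strand, 5′ to 3′. Capitals mark the ZFP57 hexamer TGCCGC or its reverse complement GCGGCA. For Mest, Plagl1, H19 and Gnas the window is the stretch of the member, clear of annotated untranslated exons, with the most copies of the hexamer, and for Arhgap23 and Lix1 it is centred on the summit.
Mest, chr6:30737396-30737695: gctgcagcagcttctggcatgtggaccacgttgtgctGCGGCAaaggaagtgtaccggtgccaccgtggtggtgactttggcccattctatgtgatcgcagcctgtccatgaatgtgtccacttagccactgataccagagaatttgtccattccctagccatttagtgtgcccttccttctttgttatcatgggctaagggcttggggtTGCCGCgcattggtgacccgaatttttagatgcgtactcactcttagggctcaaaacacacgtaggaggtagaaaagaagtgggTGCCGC
Plagl1, chr10:13091025-13091324: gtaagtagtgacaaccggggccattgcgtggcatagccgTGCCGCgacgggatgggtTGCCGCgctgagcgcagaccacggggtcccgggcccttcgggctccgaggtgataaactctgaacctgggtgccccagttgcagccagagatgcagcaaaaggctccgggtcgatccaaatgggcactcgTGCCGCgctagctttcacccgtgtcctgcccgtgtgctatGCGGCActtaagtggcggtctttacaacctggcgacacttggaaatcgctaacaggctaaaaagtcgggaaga
H19 upstream, chr7:142580270-142580569: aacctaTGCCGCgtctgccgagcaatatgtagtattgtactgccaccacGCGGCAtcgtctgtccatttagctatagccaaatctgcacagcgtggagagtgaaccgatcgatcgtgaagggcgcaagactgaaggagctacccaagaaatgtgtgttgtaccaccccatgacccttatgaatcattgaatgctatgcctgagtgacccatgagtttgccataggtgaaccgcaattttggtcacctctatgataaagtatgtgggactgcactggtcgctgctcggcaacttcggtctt
Gnas, chr2:174297191-174297490: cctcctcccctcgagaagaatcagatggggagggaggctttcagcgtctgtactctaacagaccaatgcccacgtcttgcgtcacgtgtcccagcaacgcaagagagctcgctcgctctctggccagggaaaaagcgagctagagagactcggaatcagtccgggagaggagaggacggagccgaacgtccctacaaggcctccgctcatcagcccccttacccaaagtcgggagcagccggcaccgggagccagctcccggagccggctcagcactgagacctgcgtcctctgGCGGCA
Arhgap23, chr11:97427928-97428227: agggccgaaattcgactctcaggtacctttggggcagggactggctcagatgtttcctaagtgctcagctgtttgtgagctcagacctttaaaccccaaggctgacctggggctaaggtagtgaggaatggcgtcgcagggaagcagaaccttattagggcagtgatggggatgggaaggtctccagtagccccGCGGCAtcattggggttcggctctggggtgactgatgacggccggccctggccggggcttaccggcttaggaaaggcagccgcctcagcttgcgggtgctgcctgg
Lix1, chr17:17491547-17491846: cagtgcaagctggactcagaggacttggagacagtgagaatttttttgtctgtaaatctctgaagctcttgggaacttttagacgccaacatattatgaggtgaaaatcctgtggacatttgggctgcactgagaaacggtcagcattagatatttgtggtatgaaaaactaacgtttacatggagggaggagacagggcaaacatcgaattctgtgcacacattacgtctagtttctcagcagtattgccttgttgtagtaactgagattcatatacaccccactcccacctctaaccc
The windows held 3 copies of the hexamer at Mest, 4 at Plagl1, 2 upstream of H19, 1 at Gnas, 1 at Arhgap23 and 0 at Lix1. Over the whole member, a copy was found in 5 of the 8 members at imprinted genes and in 142 of all 847 members, 16.8%. The H13 member and the Gnas member chr2:174291481-174292072, which had H3K9me3 in WT lists only and are not shown, held 0 copies each. Gpr1, with no H3K9me3 call in either genotype, held 1 copy. Matches were counted on both strands and describe these letters only.

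The members were weakly enriched compared with the H3K4me3 regions that every library shared. Fold enrichment over input, as the peak caller gave it, had medians of 4.99, 4.90 and 4.94 over the members in KO libraries 1, 2 and 3, while the 13699 regions called in all 6 lists had medians of 9.48, 10.0 and 10.3. The members were also narrow, with a median merged width of 628 bp (266 to 2719 bp) against 1326 bp. In each KO library 98.6% to 99.8% of the members had a q-value under 0.01.

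Regions just outside the rule looked much like the members. A further 587 regions were called in all 3 KO libraries and in 1 WT library. Their lowest KO fold enrichment had a median of 4.44, and the single WT call a median of 4.40, next to a median lowest KO fold of 4.28 for the members. The strongest regions just outside were near Grhl3, with KO folds of 8.99, 8.25 and 8.77 and a call in WT 1 at 3.39, near Adprh, with 7.88, 11.6 and 12.3 and a WT call at 4.52, and near Zfp13, with 8.60, 7.86 and 7.80 and a WT call at 5.58. Among the weakest members were those in introns of Camkk2 and Prrc2b and in a coding exon of Kdm2b, with lowest folds of 2.55, 2.36 and 2.36. Absence from the WT lists is absence of a call, and 291 members (34.4%) lay within 1000 bp of a WT call.

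Most members lay over 1000 bp from an annotated start, and 243 (28.7%) lay 1 to 5 kb from one. Only 81 of 847 (9.56%) held an annotated transcription start site and 210 (24.8%) lay within 1000 bp of one, whereas 87.8% of the regions called in all 6 lists and 47.9% of the WT-only regions did so. The median distance to the nearest start was 4296 bp, and 272 members (32.1%) were over 10000 bp away. The 95% Wilson interval of the 24.8%, which covers counting error only, ran from 22.0% to 27.8%. When only protein-coding starts were counted the shares were 17.5% for the members and 84.4% for the shared regions.

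**Figure D1:**
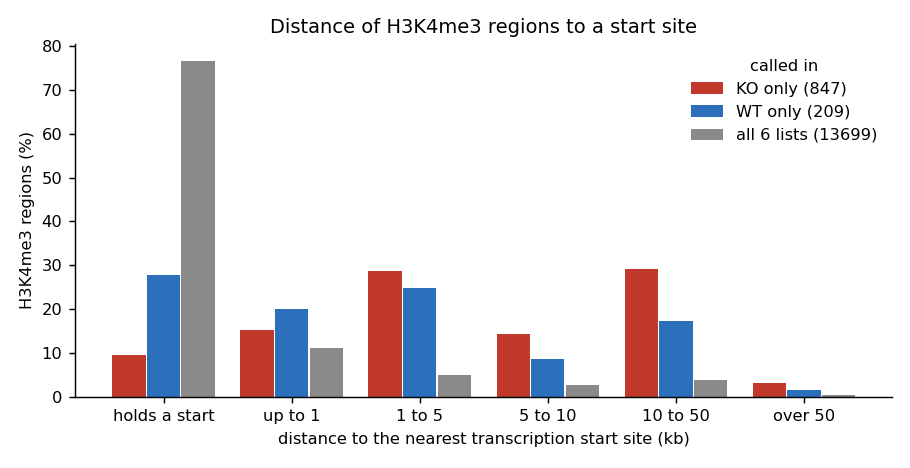
Distance from each H3K4me3 region to the nearest annotated transcription start site (x axis, kb) against the percentage of regions in each class (y axis), for the 847 KO-only, 209 WT-only and 13699 shared regions. The shared regions pile up in the first bar, where 76.65% hold a start, while 9.56% of the KO-only regions do and 29.0% of them lie 10 to 50 kb away.

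Most members inside a gene were in one whose promoter carried H3K4me3 in every library. Of the 847, 558 (65.9%) overlapped a protein-coding gene, and the start of that gene was itself under an H3K4me3 region of all 6 lists for 450 of the 558 (80.7%). The same held for 47.0% of the WT-only regions inside a gene and 95.9% of the shared ones. By position, 263 members (31.1%) were intronic, 209 (24.7%) touched a coding exon, 58 (6.85%) an untranslated exon and 229 (27.04%) no annotated gene. Their summits lay 0 to 10000 bp downstream of the 5′ end of the gene for 264 of the 558 (47.3%). A total of 490 protein-coding genes held a member, 76 held at least 2 and 18 at least 3. Pitpnc1, a phosphatidylinositol transfer protein, held 5 members, and Tet1, the 5-methylcytosine dioxygenase, held 4, as did Ccdc88c and Mkrn1. Esrrb, Fgfr2, Rara, Itga6 and Brd1 were among the genes with 3.

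The DNA under the members was poor in CpG for H3K4me3 regions. In the 300 bases around the summit the members had a median of 7 CpG dinucleotides (quartiles 4 and 10) and 52.3% G+C, whereas the regions of all 6 lists had 26 CpG (quartiles 18 and 34) and 67% G+C, and the WT-only regions 15 CpG and 60.3% G+C. By distance, the 1674 shared regions over 1000 bp from a start had a median of 20 CpG, and the 210 members within 1000 bp of a start had 8. Windows over 55% G+C with an observed to expected CpG ratio above 0.6 made up 7.44% of the members, 40.7% of the WT-only regions and 77.3% of the shared regions. Of the members' windows, 36 (4.25%) were mostly repeat-masked.

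**Figure D2:**
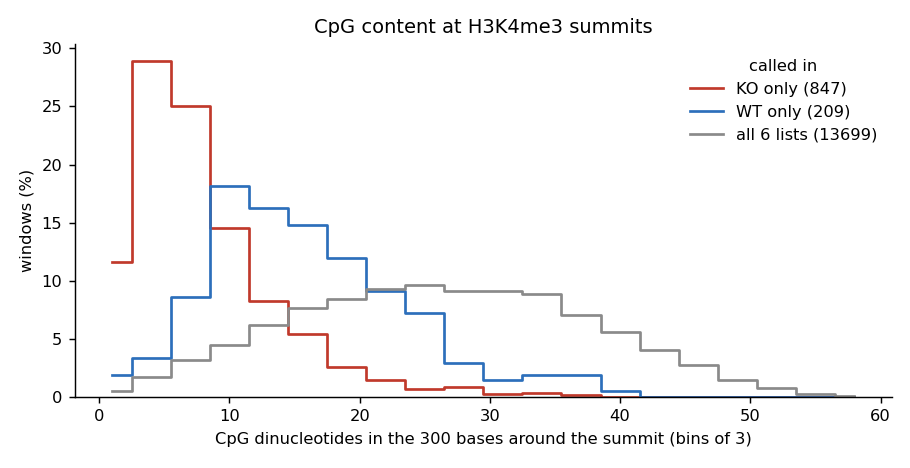
Number of CpG dinucleotides in the 300 bases around each summit (x axis, bins of 3) against the percentage of windows (y axis) for the KO-only, WT-only and shared H3K4me3 regions. The KO-only curve peaks at the low end, around its median of 7, and the shared curve is spread broadly around its median of 26.

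Letters of a few transcription factor elements were counted in the same windows on both strands. The hexamer TGCCGC was in 9.33% of the members and 28.5% of the shared regions. The octamer ATGCAAAT, read by POU factors such as OCT4, was in 1.30% against 0.474%, and the ESRRB element TCAAGGTCA in 1.06% against 0.285%. Among the shared regions over 1000 bp from a start the octamer share was 1.08% and the ESRRB share 0.478%. A κB element was in 2 members (0.236%) and 0.277% of the shared regions, and the core of the CTCF element was in 0 members. These shares rest on 11 and 9 members for the octamer and the ESRRB element. A match to the CTCF core can contain the hexamer, depending on its free bases. Apart from this, none of these motifs contains another.

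The most enriched member lay at Mest, an imprinted gene of the hydrolase fold family. It spanned chr6:30736887-30739574, held the annotated start and coding exon sequence, and had KO folds of 11.2, 16.0 and 16.0. Its nearest WT call was 43044 bp away. The next in order of their lowest KO fold were Lix1, with 8.65, 13.2 and 10.1, Gsn, the actin-severing protein gelsolin, with 7.90, 8.54 and 9.31, Slc7a1, the cationic amino acid transporter, with 10.2, 7.87 and 13.6, and Ccnd3, cyclin D3, with 7.72, 9.42 and 10.0. Ubxn11, Enah, Arhgap23, Manba and Lipe completed the 10 highest, and their lowest folds lay between 7.12 and 7.71. Of these 10, only those at Mest, Gsn and Lipe were near a protein-coding start.

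Near the starts of protein-coding genes the other strong members were at Wtip, Zfp977, Angptl6, 1190007I07Rik, Arl5c, Por and Rusc2. Their KO folds ranged from 6.04, in KO 3 at Rusc2, to 10.6, in KO 3 at Zfp977. Por encodes cytochrome P450 reductase and Lipe hormone-sensitive lipase. The widest members, after Mest with 6977 bp of calls summed over the 3 KO libraries, were at Clmp with 6381 bp, Ccnd3 with 5355 bp, upstream of Col18a1 with 4921 bp and at Ubxn11 with 4839 bp.

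Most members were under H3K4me1 and H3K27ac calls in IκBα-WT cells. H3K4me1 was called over 97.3%, 97.5% and 97.8% of the members in WT libraries 1 to 3 and over 97.8%, 97.6% and 97.5% in KO libraries 1 to 3. H3K27ac was called over 94.0%, 93.7% and 94.2% in WT and 94.9%, 94.7% and 94.3% in KO. The genotypes overlapped for H3K4me1, and every KO value was above every WT value for H3K27ac by a mean of 0.669 percentage points. Over all merged H3K4me3 regions H3K4me1 was called over 97.74% in WT and 97.3% in KO, and H3K27ac over 88.06% and 85.66%, so the members' H3K4me1 share was that of H3K4me3 regions in general. Both marks together, in at least 2 of the 3 libraries, covered 791 members (93.4%) in WT and 793 (93.6%) in KO, and only 5 members in WT and 3 in KO had none of the 4 other marks.

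**Figure D3:**
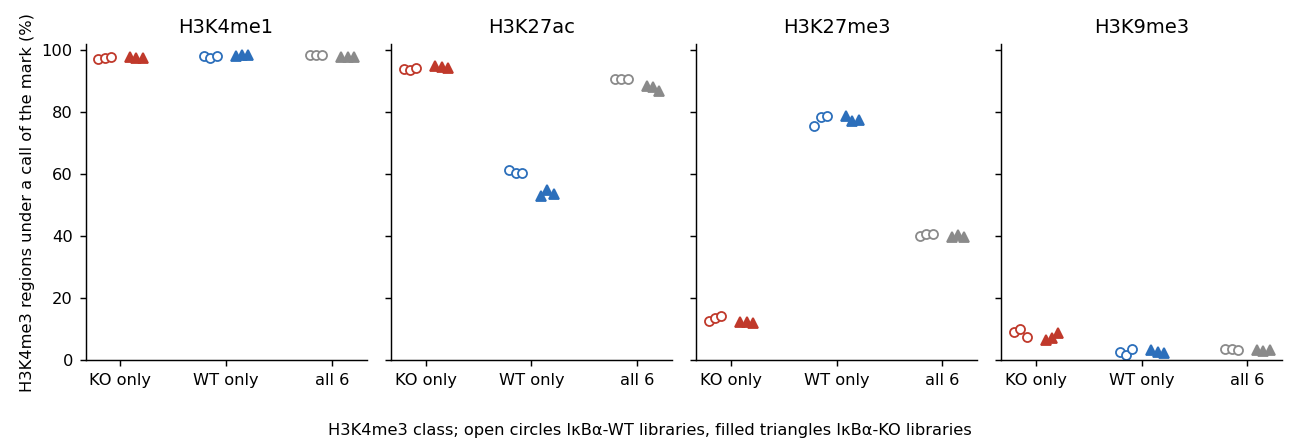
Percentage of H3K4me3 regions overlapped by a call of each of the other 4 marks (y axis, 1 point per library) for the KO-only, WT-only and shared regions (x axis), with open circles for IκBα-WT and filled triangles for IκBα-KO. The KO-only regions stand near 94% for H3K27ac and near 13% for H3K27me3 in both genotypes, while the WT-only regions stand near 78% for H3K27me3.

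H3K27me3 was called over few members, and over fewer in every KO library than in any WT library. It was called over 12.6%, 13.6% and 14.3% of them in WT and 12.4%, 12.4% and 11.9% in KO, against 36.6% ± 0.620 and 36.3% ± 0.311 (SD, n = 3) of all merged H3K4me3 regions. The WT-only regions differed from the members in this respect, with 77.7% ± 1.81 in WT (SD, n = 3). H3K9me3 was called over 9.09%, 10.0% and 7.44% of the members in WT and 6.61%, 7.08% and 8.74% in KO, so the genotypes overlapped, and over 4.58% ± 0.263 of all merged regions in WT (SD, n = 3). By the exact permutation test, two-sided, the KO minus WT differences gave p = 0.1 with H3K27me3 and H3K27ac, 0.2 with H3K9me3 and 0.7 with H3K4me1. No exact permutation test of 3 libraries against 3 can go below p = 0.1, so 0.05 was out of reach.

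Within 1000 bp of a start H3K9me3 separated by genotype. Among these 210 members it was called over 10.5%, 9.05% and 9.52% in WT and 6.19%, 6.19% and 5.71% in KO, and the groups did not overlap (difference of -3.65 percentage points, exact permutation p = 0.1, two-sided). Among the 637 more distant members the libraries ranged from 6.75% to 10.4% in WT and from 6.75% to 9.73% in KO, and overlapped. Over all merged H3K4me3 regions the mean share was 4.58% in WT and 4.32% in KO, with overlap. The share over all H3K4me3 regions near a start was not computed. H3K9me3 calls covered 201.7 to 207.3 Mb in WT libraries and 172.5 to 185.7 Mb in KO libraries. The split by distance was not repeated with top-ranked calls.

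H3K27ac reads over the members, relative to other H3K4me3 regions, were denser in every KO library than in any WT library. The median reads per kb of the H3K27ac calls over the 774 members that every library called, divided by the same median over all such H3K4me3 regions, was 1.19, 1.19 and 1.19 in WT libraries 1 to 3 and 1.25, 1.25 and 1.24 in KO libraries 1 to 3. The KO libraries were all above the WT libraries (1.244 ± 0.00698 against 1.188 ± 0.00331, SD, n = 3, exact permutation p = 0.1, two-sided). The gap was 0.0765 for the members over 1000 bp from a start, without overlap, and 0.0202 for those near a start, where the groups overlapped. Shared regions far from starts went from 0.955 to 0.964, with overlap. Input read density at the same members, scaled likewise, differed by 0.00697.

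**Figure D4:**
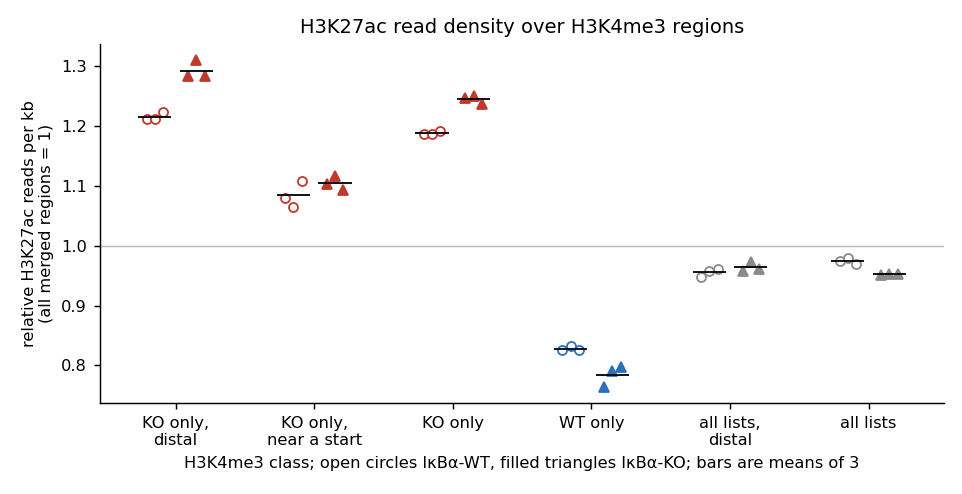
Median H3K27ac reads per kb over each class of H3K4me3 region, relative to all merged H3K4me3 regions of the same library (y axis, not starting at 0), for 3 IκBα-WT libraries (open circles) and 3 IκBα-KO libraries (filled triangles), with bars at the means. The 3 KO points lie above the 3 WT points for all KO-only regions and for the distal ones, and below them for the WT-only and shared regions.

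The direction depended on the scale. Without the scaling, the median density over the members was 86.0, 88.8 and 92.4 reads per kb in WT and 98.9, 98.5 and 83.5 in KO, and the groups overlapped (p = 0.4 by the exact permutation test, two-sided). Scaled to all H3K27ac reads in calls the sign turned, with KO 6.58% lower (exact permutation p = 0.1, two-sided). The calls were also far longer than the members, with medians of 23800 to 26500 bp in WT and 31200 to 33500 bp in KO, so that a density describes the domain in which a member lies.

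For the other marks the scaled densities over all members overlapped or differed little. H3K4me1 over 809 members was 1.122 ± 0.00577 in WT and 1.119 ± 0.00249 in KO (SD, n = 3, exact permutation p = 0.5). Its unscaled density was 95.2, 94.9 and 95.2 reads per kb in WT and 92.2, 92.6 and 91.8 in KO, without overlap (exact permutation p = 0.1), and so was the scaled density of the distant members, 1.146 in WT and 1.140 in KO. The shared regions far from a start differed in the same direction, with 89.4 reads per kb in WT and 85.5 in KO. H3K27me3 over 83 members was 0.876 ± 0.0173 and 0.893 ± 0.0232 (n = 3, exact permutation p = 0.3), and H3K9me3 over 18 members was 1.09 ± 0.0354 and 1.04 ± 0.0418 (n = 3, exact permutation p = 0.3).

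Reads were then compared region by region with edgeR, over all regions of each mark that all 6 lists called, with the covered length as an offset. Of the 795 members that lay in a tested H3K27ac region, 341 (42.9%) were in a region with more reads in KO and 23 (2.89%) in one with fewer, whereas 8.19% and 4.56% of all 24039 tested H3K27ac regions were called higher and lower at an adjusted p under 0.05. Counted in the same way, per H3K4me3 region, 24.2% of all merged H3K4me3 regions lay in a higher and 3.75% in a lower H3K27ac region, and 25.1% and 3.01% of the shared regions far from a start. The members shared regions, so the 795 stood on 632 of them, of which 238 were higher and 19 lower. The median log2 fold change was 0.09 at the members, 0.03 over all merged H3K4me3 regions and -0.01 over all tested regions. Width moved with these calls. The H3K27ac regions over members had a median width of 45000 bp against 11600 bp for all tested regions, and among the 2017 tested regions of at least that width 44.9% were called higher and 3.87% lower, a share close to that of the members. The part of width in the members' count was not tested. The split also depended on the scaling: TMM on the counts as deposited gave 144 higher and 161 lower at the members and moved the median of all tested regions to -0.13. The median at the members was 0.10 above that of all tested regions under both.

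The 3 largest increases of H3K27ac over members, by log2 fold change, were downstream of Inhbb and in introns of Osbpl10 and Pole4. Inhbb encodes a subunit of inhibin and activin, and the region over the member 74417 bp downstream of its start had 57.8, 61.0 and 61.8 normalized reads per kb in WT and 90.5, 99.1 and 90.2 in KO (log2 fold change 0.63, SE 0.05, edgeR adjusted p = 1.19e-05). At Osbpl10, an oxysterol-binding protein, the values were 78.4, 77.8 and 76.4 against 111, 113 and 113 (log2 fold change 0.53, SE 0.03, edgeR adjusted p = 3.18e-07). At Pole4, a subunit of DNA polymerase epsilon, they were 106, 112 and 109 against 155, 153 and 145 (log2 fold change 0.47, edgeR adjusted p = 4.07e-06). At all 3 the KO libraries were above the WT libraries without overlap. The 3 largest decreases were just upstream of Pbx3, a homeobox gene (-0.54, edgeR adjusted p = 0.0109), next to a start of Crem, a cAMP-responsive regulator (-0.45, edgeR adjusted p = 0.0474), and 112735 bp downstream of the Fam174b start (-0.37, edgeR adjusted p = 0.0236). The Crem call was lost without any 1 library other than KO 2 (edgeR adjusted p from 0.0745 to 0.165), and the Fam174b call without WT 1, WT 2, KO 2 or KO 3 (0.0512 to 0.0919).

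H3K4me1 reads changed at few members and in both directions. Of 828 members in tested regions, 61 (7.37%) were in regions that rose and 54 (6.52%) in regions that fell, where 4% and 1.64% of all 44625 tested H3K4me1 regions were called higher and lower. Per H3K4me3 region the shares over all merged regions were 6.01% and 5.12%, near those of the members. The median log2 fold change at the members was 0.00104. As for H3K27ac the domains were wide, with a median of 33400 bp against 7200 bp, and 23.7% of the tested regions of at least that width were called higher and 5.50% lower. The split moved to 169 higher and 11 lower with TMM on the counts as deposited, and to 33 and 124 without TMM. The largest increases were at Gnas, Gpr1 and Mras, and the largest decreases at Ect2, Ssr2 and Bmp4. The Ssr2 call was lost without any 1 library (edgeR adjusted p from 0.0574 to 0.126), and the Bmp4 call without any 1 library other than WT 1 (0.0519 to 0.0758). Mras, a RAS family GTPase, went from 87.9, 89.8 and 89.4 to 107, 103 and 108 normalized reads per kb (log2 fold change 0.25, SE 0.02, edgeR adjusted p = 4.56e-06). Ect2, a gene needed for cytokinesis, went from 124, 124 and 127 to 92.0, 95.9 and 94.5 (log2 fold change -0.41, SE 0.08, edgeR adjusted p = 0.00904).

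H3K27me3 regions were tested over 112 members. A tested region needed a call of each library only somewhere along it. The members themselves under an H3K27me3 call in all 6 libraries numbered 83. Of the 112, 6 (5.36%) rose and 3 (2.68%) fell, where 1.7% and 1.04% of all 18809 tested regions were called higher and lower. Per H3K4me3 region the shares over all merged regions were 1.89% and 2.38%. Among the 5556 tested regions at least as wide as the median over members, 15800 bp, 3.65% were called higher and 1.73% lower. The median log2 fold change was -0.00601 at the members and -0.0023 over all tested regions. The 3 that fell were upstream of Tbx3, a T-box factor of naïve pluripotency, upstream of Itga3, an integrin subunit, and in an intron of Sdc4, a syndecan. The Tbx3 region had 67.5, 79.1 and 73.9 normalized reads per kb in WT and 43.0, 39.7 and 47.4 in KO (log2 fold change -0.76, SE 0.08, edgeR adjusted p = 4.71e-05), and the member in it had H3K4me3 folds of 4.22, 5.00 and 4.02 in KO, with its summit at -9589 bp from the Tbx3 start. The largest increases were at Plagl1, upstream of H19 and at Fn3k. The Sdc4 call was lost without WT 2, WT 3, KO 2 or KO 3 (edgeR adjusted p from 0.0696 to 0.114), and the Fn3k call without WT 2, WT 3, KO 1 or KO 2 (0.115 to 0.185). With TMM on the counts as deposited the split was 2 higher and 10 lower.

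H3K9me3 regions were tested over 62 members, and 1 rose and 2 fell, where 0.168% and 0.267% of all 27342 tested regions were called higher and lower. Only 18 members were themselves under an H3K9me3 call in all 6 libraries. For the rest, at least 1 library had its call elsewhere in the tested region. Per H3K4me3 region the shares over all merged regions were 1.19% and 2.06%, near the members' 1.61% and 3.23%. Among the 5287 tested regions at least as wide as the median over members, 10300 bp, 0.416% were called higher and 0.965% lower. The increase was at Snx18, a sorting nexin, with 34.6, 35.7 and 31.6 normalized reads per kb in WT and 58.7, 60.9 and 61.2 in KO (log2 fold change 0.83, SE 0.09, edgeR adjusted p = 0.00116). The decreases were at Camta1, from 73.9, 84.7 and 83.3 to 52.7, 53.1 and 44.4, and near the pseudogene Olfr718-ps1, from 84.7, 79.9 and 85.0 to 60.4, 58.3 and 51.9 (edgeR adjusted p = 0.0149 and 0.013). Neither decrease passed without WT 3 (edgeR adjusted p = 0.0752 and 0.067) or without KO 3 (0.0603 and 0.0545), Camta1 did not pass without WT 2 (0.0754), and Olfr718-ps1 did not without WT 1 (0.0811).

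Where a mark was itself confined to one genotype's lists over a member, the direction differed by mark. H3K9me3 was called in 3 of 3 WT and 0 of 3 KO libraries over 10 members (1.18%), and the reverse was seen at 2 (0.236%), where 0.326% and 0.158% of all merged H3K4me3 regions had these patterns. H3K27ac was called only in KO at 5 members (0.590%) and only in WT at 0, against 0.165% and 0.96% of all merged regions. H3K4me1 was called only in KO at 6 (0.708%) and only in WT at 0, against 0.102% and 0.123%. H3K27me3 was called only in WT at 4 members (0.472%) and only in KO at 1 (0.118%), against 0.522% and 0.364%.

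Of the 10 members with H3K9me3 in WT lists only, 6 were at imprinted genes, namely Mest, Plagl1, a site 2127 bp from the H19 start, a pair at Gnas, and one in H13 beside the retrogene Mcts2. The Mest call had 91.0, 91.4 and 80.5 reads per kb in WT 1 to 3, the Plagl1 call 114, 95 and 79.5, the H19 call 115, 85.1 and 84.6, and the call spanning both Gnas members 103, 88.0 and 91.0. The H13 call had 69.7, 65.1 and 66.4. None of these was called in a KO library. The other 4 members of the 10, at Nme7, in Brd1 with a pair under one call, and near Klf9, had lower H3K9me3 densities in WT, from 23.2 to 42.1.

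At 3 of these 6 members, Mest, H19 upstream and Plagl1, H3K27ac and H3K4me1 were called in 0 WT libraries and in 2 or 3 KO libraries. At H13 and at the Gnas member chr2:174291481-174292072 both marks were called in all 6 libraries. At Mest, H3K27ac was called in 0 of 3 WT libraries and in KO at 76.4, 79.2 and 70.8 reads per kb, and H3K4me1 in 0 of 3 WT libraries and in KO at 72.9, 73.8 and 72.3. Upstream of H19, H3K27ac went from 0 calls to 46.5, 50.3 and 38.1 reads per kb and H3K4me1 from 0 calls to 86.2, 72.7 and 77.0. At Plagl1, which encodes a zinc finger regulator of growth, H3K4me1 went from 0 calls to 54.0, 78.3 and 56.5 reads per kb, while H3K27ac was called in 2 of 3 KO libraries. At Gnas, the locus of the stimulatory G protein alpha subunit, the member at chr2:174296972-174297576 lay 17 bp short of a WT H3K4me3 call. It had H3K27ac in 1 of 3 WT and 3 of 3 KO libraries and H3K4me1 in all 6, and its H3K4me1 region rose from 86.6, 76.8 and 77.0 to 122, 108 and 120 normalized reads per kb (log2 fold change 0.54, SE 0.08, edgeR adjusted p = 0.000736).

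**Figure D5:**
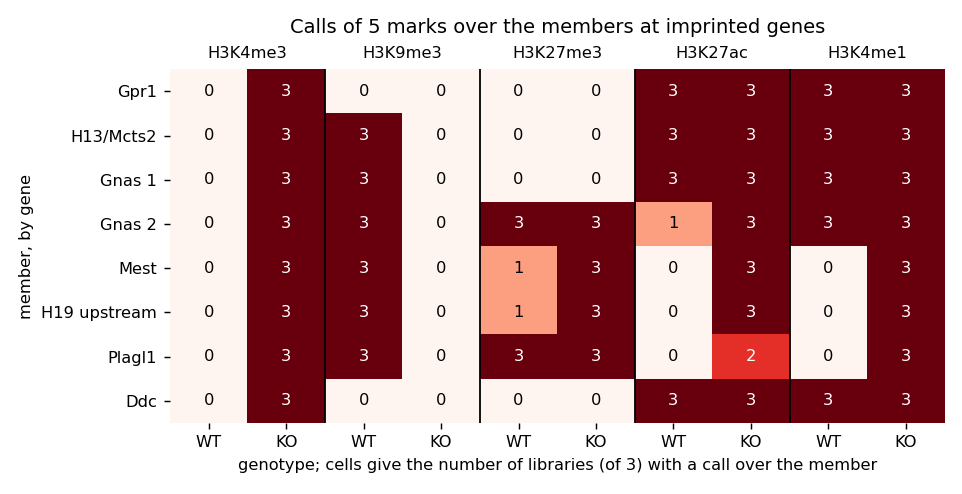
Number of libraries, of 3 per genotype, in which each of 5 marks was called over the 8 members at imprinted genes (rows), with IκBα-WT and IκBα-KO columns for each mark. The H3K4me3 columns are 0 and 3 by the choice of members. H3K9me3 goes from 3 to 0 in 6 rows, and Mest, H19 upstream and Plagl1 go from 0 to 2 or 3 for H3K27ac and H3K4me1.

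H3K27me3 rose over all 3 of the imprinted members that lay in a tested region, and over 2 of them with TMM on the counts as deposited. The Plagl1 region had 31.6, 21.4 and 25.8 normalized reads per kb in WT and 48.9, 51.4 and 50.3 in KO (log2 fold change 0.98, SE 0.11, edgeR adjusted p = 0.000141). The region around H19, chr7:142543201-142610600, had 36.5, 36.1 and 36.2 in WT and 56.0, 54.3 and 50.6 in KO (log2 fold change 0.56, SE 0.06, edgeR adjusted p = 7.6e-05). The H19 member itself was under an H3K27me3 call in 1 of 3 WT and 3 of 3 KO libraries. H3K27ac rose over 4 of 6 tested imprinted members, those at Gnas, H13 and Gpr1, with 81.7, 81.7 and 82.2 normalized reads per kb in WT and 96.8, 99.3 and 95.9 in KO at Gpr1 (log2 fold change 0.25, SE 0.02, edgeR adjusted p = 4.43e-06), and with TMM on the counts as deposited 3 rose and 1 fell. For H3K27me3 the Gnas region rose by 0.38 (SE 0.09, edgeR adjusted p = 0.0388), and at Mest H3K27me3 was called in 1 of 3 WT and 3 of 3 KO libraries. In all, 9 of 54 imprinted genes in scope (16.7%) held a member or had one within 5000 bp upstream, namely Mest, Plagl1, H19, Gnas, Nespas, H13, Mcts2, Gpr1 and Ddc, beside 608 of 19844 protein-coding genes (3.06%). Gpr1, a G protein-coupled receptor gene, and Ddc, which encodes DOPA decarboxylase, had no H3K9me3 call in either genotype. Neighbouring genes share members, so these 9 genes stood on 8 regions, of which 4 were kept when every list had the same number of top-ranked calls.

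Outside the imprinted list, 2 members had both H3K27ac and H3K4me1 in KO lists only. At Rpl10l, a ribosomal protein retrogene, the member held the start and lay 935617 bp from any WT call. It was called for H3K9me3 in 2 of 3 WT and 0 of 3 KO libraries, and for H3K27ac and H3K4me1 in 0 of 3 WT and 3 of 3 KO libraries, with 80.0, 57.5 and 54.3 and with 58.8, 46.9 and 55.6 reads per kb. At a non-coding exon, -121032 bp from the start of Lemd2, the nearest protein-coding gene, H3K27ac and H3K4me1 were likewise called only in KO, and H3K9me3 was called in all 6 libraries, at 120, 106 and 114 reads per kb in WT and 48.1, 50.5 and 83.5 in KO. Over the merged region the H3K9me3 difference did not pass (log2 fold change -0.26, SE 0.06, edgeR adjusted p = 0.0881), and H3K27me3 rose from 52.1, 54.0 and 52.7 to 62.9, 63.8 and 62.9 normalized reads per kb (log2 fold change 0.26, SE 0.05, edgeR adjusted p = 0.0173). The member called for H3K27ac only in KO without a change of H3K4me1 calls was in an intron of Stim1, the calcium sensor of the endoplasmic reticulum.

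H3K27me3 was called in WT lists only over 4 members. They were at Wnt5b, a WNT ligand, Tfap2a, a neural crest transcription factor, Bmp4, a ligand of the TGF-β superfamily, and Pfkfb3, a glycolytic regulator. In WT the calls had 37.2, 36.5 and 40.9 reads per kb at Wnt5b, 30.0, 81.1 and 82.6 at Tfap2a, 44.3, 28.5 and 36.8 at Bmp4 and 29.0, 24.7 and 20.6 at Pfkfb3. The member at Wnt5b held the start of the gene, with H3K4me3 folds of 5.81, 4.47 and 6.40 in KO. The single member with H3K27me3 only in KO lay upstream of Tent5b.

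Of 26 naïve pluripotency genes in scope 7 had a member (26.9%), beside 3.06% of all protein-coding genes, and 0 had a WT-only region. They were Nanog, Esrrb, Klf5, Tfcp2l1 and Dppa2, which encode transcription factors or DNA-binding proteins of the naïve state, Tet2, a 5-methylcytosine dioxygenase, and Tdgf1, a NODAL co-receptor. Esrrb held 3 members, with KO folds from 3.82 to 5.68, and Tet2 held 2, with 4.77 to 5.88. The Nanog member, 509 bp upstream of the start by its summit, had 4.47, 5.77 and 6.02, and a WT call lay 12 bp from it. The Tdgf1 member had 5.12, 5.70 and 7.54. This and the other gene lists were chosen with earlier results of these data known. The 3.06% covers all protein-coding genes, with or without H3K4me3 at their start.

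All 10 members at the naïve genes lay in H3K27ac regions that rose in KO. They lay in 7 regions, and the median log2 fold change over the 10 members was 0.27, beside -0.01 over all tested regions. For comparison, 42.9% of all members, 24.2% of all merged H3K4me3 regions and 44.9% of the H3K27ac regions as wide as those over members were called higher. The largest was at Tfcp2l1, from 88.8, 91.7 and 87.5 to 117, 119 and 114 normalized reads per kb (log2 fold change 0.39, SE 0.03, edgeR adjusted p = 1.22e-06), followed by Tet2 with 131, 136 and 129 against 175, 169 and 162 (0.36, SE 0.03, edgeR adjusted p = 3.21e-05) and Esrrb with 105, 109 and 108 against 131, 128 and 131 (0.27, SE 0.02, edgeR adjusted p = 5.3e-06). The smallest were at Nanog (0.11, edgeR adjusted p = 0.0363) and Klf5 (0.11, edgeR adjusted p = 0.0334). With TMM on the counts as deposited 7 of the 10 passed and the median was 0.15. H3K4me1 rose over 1 of the 10, at Tfcp2l1, and fell over 1, at Klf5 (-0.14, SE 0.02, edgeR adjusted p = 0.000779), and with TMM on the counts as deposited it rose over 5 and fell over 1. No H3K27me3 or H3K9me3 region called in all 6 lists lay over any of them.

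Genes of the enzymes that write or erase H3K4 and DNA methylation also had members in them or within 5000 bp upstream. Of 24 such genes 7 had one (29.2%). They were Tet1 with 4 members, Tet2 and Setd1b with 2 each, and Dnmt3a, Dpy30, Kdm5b and Kmt2b. The Kmt2b member, chr7:30592733-30593066, did not overlap Kmt2b but fell in its upstream window, and by position it was assigned to Zbtb32. Setd1b is a SET1 methyltransferase and Dpy30 a core subunit of its complex, Kmt2b is an MLL methyltransferase, Kdm5b an H3K4 demethylase and Dnmt3a a de novo DNA methyltransferase. The Setd1b members, in coding exons, had KO folds of 7.02, 5.30 and 5.97 and of 6.96, 5.60 and 5.998. Over the 12 members H3K27ac rose at 3, those at Tet2 and Kdm5b, and its median log2 fold change was 0.05, where TMM on the counts as deposited gave 2 higher and 4 lower. For the other 9 the test did not pass, as at Tet1 with 104, 109 and 113 normalized reads per kb in WT and 114, 112 and 110 in KO (0.04, SE 0.03, edgeR adjusted p = 0.458).

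Of 21 formative and primed epiblast genes 3 (14.3%), Dusp6, Etv5 and Dnmt3a, had a member in them or within 5000 bp upstream. Among these members edgeR called H3K27ac changed at 0 (median log2 fold change -0.06), or lower at 2 with TMM on the counts as deposited. Over Etv5, an ETS factor, H3K4me1 fell from 131, 128 and 126 to 120, 115 and 116 normalized reads per kb (-0.13, SE 0.02, edgeR adjusted p = 0.00244). No member was at any of 34 lineage regulators, 26 germline genes or 26 genes of the NF-κB pathway and its targets. Of all protein-coding genes 3.06% had a member, so lists this short can hold none and show no lack of members. Developmental genes outside these lists, such as Tfap2a, Wnt5b and Bmp4, did have members. No test of a list was made.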

How the data were processed

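ChIP-seq of 5 histone marks in 3 IκBα-WT and 3 IκBα-KO mESC clones was deposited as 1 list of calls per library, on GRCm38. Per the labels and methods, the authors used Trim Galore 0.6.6, Bowtie2 2.4.4, SAMtools 1.15 and deepTools 3.5.1. For H3K4me3 the authors called peaks with MACS2 2.2.7.1 against the input of the genotype, and the deposited lists give a score, a fold enrichment (ratio) and −log10 p- and q-values. The labels give 1 H3K4me3 input per genotype, so the 3 lists of a genotype share it and are not independent of it. Whether the H3K4me3 inputs differed at the members was not tested. For the other marks the authors used epic2 (named SICER 0.0.52 in the labels), and the deposited lists give ChIP and input read counts per region, a p-value and FDR, a score and the log2 ratio of ChIP to input reads. The aligner for H3K27ac and the processing of H3K9me3 are not given in full in the sources used here, and the labels name 1 antibody for both H3K27ac and H3K4me1 where the methods name separate ones. Replicate numbers come from the labels, and p-values measure the spread between the libraries of a genotype, taken as 1 per clone.

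H3K4me3 lists were merged at 1 bp of overlap. Starts and genes are those of GENCODE M21, and a region within 1000 bp of a start was called near it. The read depth in calls was 8910890 to 10938375 reads per H3K27me3 library, 8548342 to 12105343 per H3K9me3 library, 22943091 to 28339766 with H3K27ac and 34736939 to 35951506 with H3K4me1. The H3K4me3 lists hold no read counts, so their depth in calls is unknown, while the methods state a range of sequenced reads for H3K4me3. Shares and median densities were compared with two-sided exact permutation tests. Counts over regions called in all 6 lists of a mark were fitted with edgeR 4.0.16 (R 4.3.3), quasi-likelihood test, covered length as an offset, TMM on length-scaled counts and Benjamini-Hochberg adjustment over all regions (threshold 0.05). The fit was tested on simulated data. Alternatives were DESeq2 1.42.0, other scalings, filters, overlaps, a replicate block and leaving out each library.

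The members and gene lists were chosen with earlier results of these data known. Members were named if among the 10 with the highest lowest-of-3 KO fold enrichment, overall or near a protein-coding start, the 5 widest, the 3 with the largest change of each mark in each direction, those with 2 or more marks confined to one genotype, those in or within 5000 bp upstream of a listed gene, or the 3 weakest, with the 3 strongest regions that had 1 WT call. Members with a single mark confined to one genotype were named after their values were seen.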

Additional observations from a re-analysis of the deposited data

How the results depend on the processing

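Of 265 comparisons under an alternative, 201 were labelled unchanged, 58 moved and 6 reversed. A count was unchanged within 1.5 times, and the share near a start within its 95% Wilson interval. Differences in share and density were unchanged unless the sign turned, because no exact p could fall below 0.05. Their label says nothing of size. With the same number of top-ranked calls in every list 496 regions met the rule, with calls within 500 bp merged 606, and without one library in turn 961 to 1688. The top-ranked lists kept 429 (50.6%) of the 847 members and 40 of the 70 named ones. The 500 bp merge kept 564 (66.6%) of the members, 42 of the 70 named and 5 of the 8 imprinted ones. The share within 1000 bp of a start was 17.47% for protein-coding starts, 36.01% from 5000 bp upstream to 100 bp downstream, and 22.52% to 29.55% without one library. Scaled to all reads in calls the KO minus WT density reversed for H3K27me3 (-0.3735), H3K9me3 (0.1986) and H3K27ac (-0.2454). With top-ranked calls of the mark the difference in share reversed for H3K9me3 (0.5903) and H3K4me1 (-0.03935), and for H3K4me1 also when a call had to cover most of the member (-0.7084). Without one library the differences in share were -1.692 to -0.8658 (H3K27me3), -2.086 to -0.7871 (H3K9me3), 0.5313 to 0.8264 percentage points (H3K27ac) and 0.0 to 0.2361 (H3K4me1), and those in scaled density, in the same order, 0.007027 to 0.03037, -0.07368 to -0.03188, 0.05327 to 0.06002 and -0.005849 to -8.154e-05. The cause of these changes was not tested.

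Members with H3K27me3 in KO lists only numbered 0 at an FDR under 0.01, 0 with top-ranked calls and 2 when a call had to cover most of the member, and those with H3K9me3 in KO lists only 1 and 1 under the first pair of settings. H3K4me1 was in WT lists only at 2 members with the stricter overlap. Without one library the KO-only and WT-only counts were 1 to 2 and 4 to 9 with H3K27me3, 3 to 7 and 11 to 13 with H3K9me3, 5 to 7 and 0 to 2 with H3K27ac, and 6 to 7 and 0 to 2 with H3K4me1. TMM on the counts as deposited was chosen after seeing the data. It gave 2 members higher and 10 lower for H3K27me3, 1 lower for H3K9me3, 144 and 161 for H3K27ac, where the median log2 fold change reversed to -0.03, and 169 and 11 for H3K4me1. Without TMM, 5 were lower for H3K27me3, 72 lower for H3K27ac, and 33 higher and 124 lower for H3K4me1. With regions of a length ratio of at least 0.8 and no offset, which leaves fewer regions, the counts were 3 and 10 for H3K27me3, 93 lower for H3K27ac, and 179 and 171 for H3K4me1. DESeq2 gave 4 lower for H3K9me3. Without one library the higher and lower counts were 2 to 5 and 2 to 7 (H3K27me3), 1 to 1 and 0 to 3 members (H3K9me3), 285 to 330 and 12 to 19 (H3K27ac), and 43 to 50 and 35 to 41 (H3K4me1). Of 241 values for named members 200 stayed past the threshold and 41 did not, at Crem, Fam174b, Fn3k, Sdc4, Bmp4, Ssr2, Camta1 and Olfr718-ps1.

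Libraries with the same replicate number did not deviate together (correlations between -0.0179 and 0.0267), so the numbers do not pair them. With the replicate block 6 members were higher and 3 lower in H3K27me3 reads, 1 and 3 in H3K9me3, 320 and 21 in H3K27ac and 53 and 46 in H3K4me1.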
